A study of Mus musculus with 3 samples.

Results

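The 10 genes described here, Ndrg1, Adm, Vegfa, Car9, Bnip3, Egln3, Ankrd37, P4ha1, Hif1a and Egln1, belong to the hypoxia-inducible factor (HIF) system. They were chosen by name out of 24402 gene symbols, with their values in these same libraries already known. The measurement was RNA sequencing of cancer stem cell spheroids (CSCsp) of 4T1, a mouse triple negative breast cancer line from the Balb/c strain, with 1 library for each of 3 conditions. Library R is CSCsp co-cultured with tumor antigen primed splenocytes that had received reinforced activation with anti-CD3/CD28 dynabeads and IL2. Library P is CSCsp co-cultured with primed splenocytes that had been kept in Dulbecco's phosphate buffered saline (DPBS). Library N is CSCsp without co-culture. All CSCsp were grown for 7 days in serum-free medium without attachment and kept on a 40 μm strainer. The splenocytes came from female Balb/c mice that were 8 weeks old when 4T1 cells were injected into the mammary fat pad and that carried the tumors for 28 days. By the study's methods, equal amounts of RNA from 4 independent experiments went into the sequencing, and each condition has 1 library of 1 cell line. No difference between the conditions therefore has a replicate check, an SD or a p-value, and every comparison is a description.

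HIF is a dimer of an oxygen-regulated alpha subunit, such as the product of Hif1a, and the constant subunit ARNT. While oxygen is present, prolyl hydroxylases of the EGLN family hydroxylate the alpha subunit, and the von Hippel-Lindau protein (VHL) then targets it for degradation. When oxygen is short, the dimer binds short DNA cores that end in CGTG and activates genes of vessel growth, glucose use, acid export, mitophagy and collagen synthesis. Egln1 and Egln3 are both brakes on HIF and targets of it. Hif1a itself is regulated mainly at the protein level, so its mRNA is no direct measure of HIF activity. Tumor spheroids are known for oxygen-poor interiors.

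The labels of P and N may be exchanged. Groups were taken from them here, but the name under which the library labelled N was deposited refers to the saline of the primed splenocytes, and that of the library labelled P to no treatment. The values the study tabulates for unexposed CSCsp also lie nearest to the library labelled P for most of its genes. The labels were kept, so that below P and N stand for the libraries so labelled. Exchanging them turns each ratio of R over N into the ratio of R over P and turns P over N upside down, and both ratios of R are given for each of the 10 genes. The label of library R was not in doubt in this way. The libraries held 19178982 (R), 17887652 (P) and 17894139 (N) fragments. Of 10 epithelial markers, 9 reached 1 FPKM (fragments per kilobase of transcript, scaled to the fragments of the library) in every library, and Krt5 was at 0 in all of them. Of 10 breast cancer stem cell markers, 4 did (Cd44, Cd24a, Itga6 and Procr), whereas Sox2 was at 0 throughout, and Prom1, Aldh1a1, Aldh1a3, Nanog and Pou5f1 were at or near 0. The epithelial markers summed to 1776 FPKM in R, 2091 in P and 2348 in N, and the stem cell markers to 211, 182 and 208. Of the 9 epithelial markers, 7 were lower in R than in N and 5 lower in R than in P, beside 39.7% and 46.0% of all genes.

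Levels of leukocyte markers differed between the libraries. Of 58 leukocyte markers, 16 reached 1 FPKM in library R, 3 in P and 13 in N. Those in P were Ltf, Cd68 and Cd14, which reached it in every library. The summed FPKM of all 58 was 106 in R, 46.4 in P and 123 in N, and those at 0 were 9 in R, 34 in P and 11 in N. Library N, labelled as without co-culture, thus held more of these markers than library P, labelled as co-cultured. Whether this reflects the possible exchange of labels was not tested. The classes did not move alike: neutrophil and granulocyte markers summed to 23.0 FPKM in R, 13.1 in P and 38.2 in N, and T and NK cell markers to 3.27 in R, 0.87 in P and 1.26 in N. Of the neutrophil and granulocyte markers, Ltf alone was at 11.3 FPKM in R, 12.3 in P and 16.1 in N. It made up most of their sum in P, where 7 of the 12 were at 0. Single genes weighed heavily, as Mpeg1, a macrophage gene, was at 24.5 FPKM in R, 0.23 in P and 0.70 in N, and Lyz2, a lysozyme of myeloid cells, at 6.51 in R, 0.31 in P and 28.9 in N. Cd68 was at 19.2 FPKM in R, 18.0 in P and 21.4 in N, and Cd14 at 17.1 in R, 12.5 in P and 18.4 in N. With Ltf, they made up most of the sum in P. Of the defining T cell genes, Cd3e was at 0.077 FPKM in R and 0 in P and N, Cd3d at 0.039 in R and 0 in P and N, and Cd3g at 0 in R and P and 0.055 in N. The part of these cells in the results below was not tested. The summed FPKM of the HIF target genes was 816 in R, against 2039 in P and 1857 in N. In such bulk RNA, fewer cells of a kind and less RNA per cell cannot be told apart.

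All 10 genes reached 1 FPKM in every library, and 9 of them had their lowest level in library R, Hif1a being the exception. R was lowest of the 3 libraries for 32.6% of all 11323 genes with 1 FPKM in any library. The ratio of R over N ran between 0.17 for Adm and 1.09 for Hif1a. At least 2-fold lower in R than in N were 6 genes (Adm, Ndrg1, Ankrd37, Egln1, Bnip3 and Vegfa), a share to set beside 1.88% of 11202 genes. The same 6 genes were at least 2-fold lower in R than in P, where the share over 11212 genes was 1.69%. At least 2-fold lower in R than in both others were 1.04% of all genes. None of the 10 was 2-fold higher in R in either comparison, and 4.97% (R over N) and 5.85% (R over P) of all genes were 2-fold apart in either direction. None was 2-fold apart between P and N in either direction, against 2.08% of 11139 genes. The genes were picked for these values, so nothing is read from the counts. The median log2 ratio of the 10 genes, with a pseudocount of 0.1 FPKM, was -1.06 for R over N, beside 0.08 over all genes, and -1.12 for R over P, beside 0.03. It was 0.05 for P over N, beside 0.03. Ratios below are given without the pseudocount, with exact 95% intervals that cover counting error only.

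**Figure D1:**
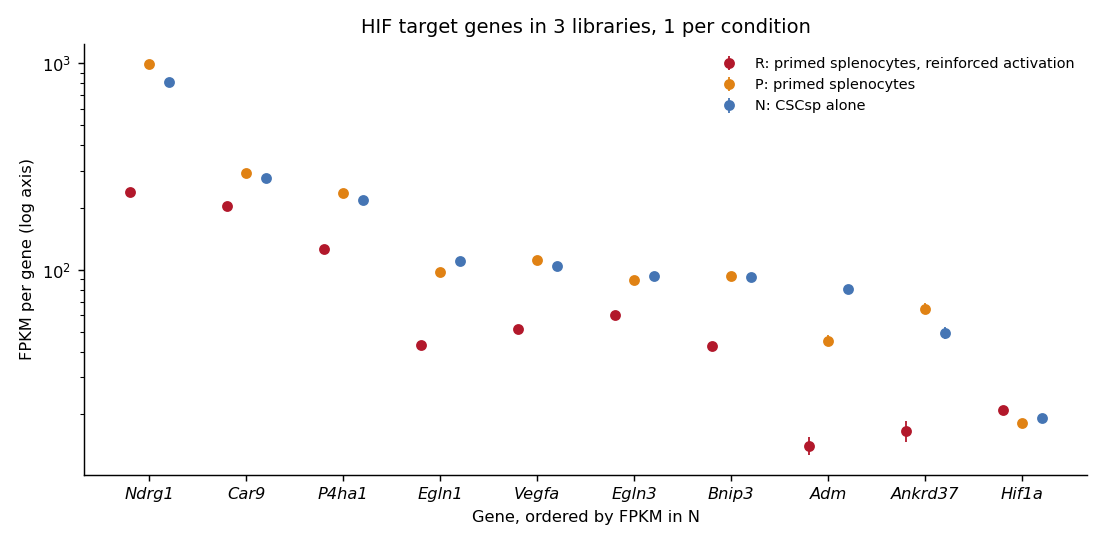
FPKM of the 10 genes (log axis) in R, P and N, with exact 95% Poisson intervals that cover counting error only. In 9 of 10 genes the point of R lies below both others, whereas for Hif1a it lies above them, at 20.8 FPKM in R against 18.0 in P and 19.1 in N.

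As promoters of HIF targets often hold the binding core of the dimer, the 250 bases before the start of each gene were read from RefSeq (GRCm38.p6). Windows were at hand for 9 of the 10 genes, Ndrg1 having no entry, and for 2 starts of Vegfa. The cores searched were ACGTG and GCGTG on both strands. A CACGTG palindrome, which is also an E-box of other factors, holds ACGTG on either strand. ACGTG was in 8 of the 10 windows, against 16.6% of all 32851 windows, and GCGTG in 6, against 28.2%. At least 1 core was in 9 windows, against 38.6%, and at least 2 cores were in 7, against 16.7%. The windows of these genes were also richer in GC, with a median of 63.0% against 52.4% over all windows. A CACGTG palindrome was in the windows of Bnip3 and Hif1a and in 6.0% of all windows. The cores of Egln1 and of the internal start of Vegfa lie inside RefSeq exons of these same genes. Those of Car9 and Hif1a lie inside exons of transcripts assembled from the reads. The windows are therefore not all free of transcribed sequence. A match is only a match of letters, not a bound site. The windows of 4 genes are shown, for Adm, Ankrd37 and Bnip3 as genes at least 2-fold lower in R and for Car9 as a smaller difference, with the cores in capitals (CACGC and CACGT are cores read on the other strand).
Adm (chr7:110627407-110627656, plus strand): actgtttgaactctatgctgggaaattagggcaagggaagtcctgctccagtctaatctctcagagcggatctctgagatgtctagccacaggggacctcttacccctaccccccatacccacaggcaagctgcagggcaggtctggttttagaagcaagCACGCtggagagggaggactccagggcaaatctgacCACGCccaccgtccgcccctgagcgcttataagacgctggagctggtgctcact
Ankrd37 (chr8:45999851-46000100, minus strand): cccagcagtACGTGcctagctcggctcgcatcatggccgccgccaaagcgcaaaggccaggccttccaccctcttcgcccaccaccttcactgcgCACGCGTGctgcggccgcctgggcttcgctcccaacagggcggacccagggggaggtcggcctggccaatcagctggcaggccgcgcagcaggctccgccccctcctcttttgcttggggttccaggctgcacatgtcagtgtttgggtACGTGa
Bnip3 (chr7:138909507-138909756, minus strand): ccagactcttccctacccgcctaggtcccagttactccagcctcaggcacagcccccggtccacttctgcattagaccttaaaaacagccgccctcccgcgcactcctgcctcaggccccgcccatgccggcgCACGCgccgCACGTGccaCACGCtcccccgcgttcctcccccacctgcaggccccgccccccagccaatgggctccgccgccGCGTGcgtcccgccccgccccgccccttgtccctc
Car9 (chr4:43506776-43507025, plus strand): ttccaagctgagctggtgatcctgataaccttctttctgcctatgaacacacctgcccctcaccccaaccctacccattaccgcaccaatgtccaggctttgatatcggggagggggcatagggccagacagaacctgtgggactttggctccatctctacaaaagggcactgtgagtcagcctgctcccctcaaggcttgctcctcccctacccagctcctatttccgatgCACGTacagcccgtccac
Adm held 2 GCGTG cores, which began 90 and 54 bases before the start. Ankrd37 held 4 cores, of which 1 ACGTG lay 6 to 2 bases before the start. Bnip3 held 5, the most of any window here. Car9 held a single ACGTG, 18 to 14 bases before the start. The upstream start of Vegfa held none, and its internal start held 2. The number of cores did not order the genes as their ratios did, since Adm, with the lowest ratio of R over N, held 2 and Bnip3 held 5.

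The secreted ligands come first. Adm encodes adrenomedullin, a peptide that widens vessels and acts on their lining (chr7:110627669-110629819, plus strand). It was at 14.0 FPKM in R, against 45.2 in P and 80.3 in N. The 3 libraries thus lay in the order R, P, N with no overlap of their counting intervals, and Adm was the gene of the 10 whose ratio of P over N lay farthest from 1. Its ratio of R over N was 0.17 (0.16 to 0.19), the lowest of the 10, and that of R over P was 0.31 (0.27 to 0.35). Its ratio of P over N was 0.56 (0.52 to 0.61). All 4 exons of Adm were lower in R, with ratios of R over N between 0.16 and 0.21, so the difference ran along the whole transcript.

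Vegfa encodes vascular endothelial growth factor A, the main signal for new vessels (chr17:46016993-46032377, minus strand). It was at 51.6 FPKM in R, against 111 in P and 105 in N. R stood apart, with a ratio of 0.49 (0.47 to 0.51) over N and of 0.47 (0.45 to 0.49) over P, whereas P and N were close, at a ratio of 1.06 (1.02 to 1.10). The files list 9 Vegfa transcripts that differ in a 72-base and a 132-base exon, which encode parts of the protein that bind heparan sulfate. Forms with the 132-base exon alone made up 56.5% of Vegfa FPKM in R, 62.1% in P and 56.7% in N. Forms with neither exon, which encode the freely diffusing protein, made up 39.8% in R, 34.4% in P and 39.5% in N. Forms with both made up 3.66% in R, 3.50% in P and 3.81% in N. The ratio of R over N was 0.49 for forms with the 132-base exon alone, 0.50 for those with neither exon and 0.47 for those with both, and the ratio of R over P was 0.42, 0.54 and 0.49 for these forms. Over N it was 0.50 for transcripts from the upstream start and 0.44 for those from the internal start, and over P it was 0.47 and 0.42. The call against N was close to its threshold: the log2 ratio of R over N of Vegfa was -1.02, but -0.97 with TPM and -0.64 with its most abundant transcript alone. StringTie estimates the shares of forms from short reads that mostly fall in shared exons, and they carry no error here.

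Ndrg1 encodes a cytoplasmic protein that responds to hypoxia and other stress (chr15:66929318-66969641, minus strand). It was at 238 FPKM in R, against 990 in P and 811 in N. By FPKM it ranked 202nd of all genes in R, 25th in P and 49th in N. Its ratio of R over P was 0.24 (0.24 to 0.25), the lowest of the 10 in that comparison, and that over N was 0.29 (0.29 to 0.30). With 13219 fragments in R, Ndrg1 had the narrowest interval of the 6 genes that were 2-fold lower. Each of its 16 exons was lower in R, with ratios of R over N between 0.27 and 0.31.

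Ankrd37 encodes a small ankyrin repeat protein (chr8:45996908-45999850, minus strand). It was at 16.4 FPKM in R, against 64.6 in P and 49.3 in N. The order R, N, P was that of Ndrg1, and the intervals did not overlap. The ratio of R over N was 0.33 (0.29 to 0.38) and that of R over P was 0.25 (0.22 to 0.29), resting on 271 fragments in R, the fewest of the 10 genes. Its 5 exons gave ratios of R over N between 0.33 and 0.45.

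Bnip3 encodes a receptor in the outer mitochondrial membrane that marks mitochondria for autophagy (chr7:138890836-138909506 for the RefSeq transcript, minus strand). It was at 42.7 FPKM in R, against 93.5 in P and 91.6 in N. P and N differed by less than the counting error, with a ratio of P over N of 1.02 (0.98 to 1.07), the one such case among the 10 genes. The ratio of R was 0.47 (0.44 to 0.49) over N and 0.46 (0.43 to 0.48) over P. All 6 exons were lower in R.

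Car9 encodes a carbonic anhydrase of the cell surface that helps to export acid (chr4:43507026-43513725 for the RefSeq transcript, plus strand). It was at 203 FPKM in R, against 295 in P and 279 in N. R was again the lowest, but by less than 2-fold, with a ratio of 0.73 (0.70 to 0.75) over N and 0.69 (0.67 to 0.71) over P. Its 11 exons gave ratios of R over N between 0.64 and 0.79. By FPKM, Car9 ranked 237th of all genes in R, against 161st in P and 186th in N.

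Of the hydroxylases that mark HIF for degradation, Egln1 and Egln3 were lowest in R. Egln1, the main oxygen sensor of most cells (chr8:124908587-124949444 for the RefSeq transcript, minus strand), was at 42.9 FPKM in R, against 97.8 in P and 110 in N. Its ratio was 0.39 (0.37 to 0.41) over N and 0.44 (0.42 to 0.46) over P. Part of this FPKM lies on transcripts assembled by StringTie. The RefSeq transcript alone was at 38.7 FPKM in R, against 84.0 in P and 71.3 in N, a log2 ratio of R over N of -0.88 in place of -1.36. Egln1 therefore no longer passed 2-fold against N when the RefSeq transcript alone was used, while it did against P. Egln3, which is strongly induced by hypoxia in many cells (chr12:54178981-54203915 for the RefSeq transcript, minus strand), was at 60.1 FPKM in R, against 89.2 in P and 93.5 in N. Its ratio was 0.64 (0.61 to 0.67) over N and 0.67 (0.64 to 0.70) over P, so it stood below 2-fold, and all 5 exons were lower in R.

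Hif1a, the alpha subunit itself, was not lowest in R (chr12:73907867-73950183 for the RefSeq transcript, plus strand). It was at 20.8 FPKM in R, against 18.0 in P and 19.1 in N. The ratio of R over N was 1.09 (1.03 to 1.14) and that of R over P was 1.16 (1.10 to 1.22). R was thus the highest of the 3, and the ratio of P over N was 0.94 (0.89 to 0.99). The sum is made of 1 RefSeq and 5 assembled transcripts, and the RefSeq share was 22.6% in R, 52.1% in P and 33.8% in N. The RefSeq transcript alone was at 4.70 FPKM in R, against 9.35 in P and 6.45 in N, which would put R lowest. The 12 exons that all 6 transcripts share do not depend on this split, and their coverage gave ratios of R over N between 0.97 and 1.46, with a median of 1.09. Over P the same exons gave 1.05 to 1.40, with a median of 1.19.

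P4ha1 encodes the catalytic alpha subunit of collagen prolyl 4-hydroxylase, which hydroxylates prolines of collagen (chr10:59323296-59373799, plus strand). It was at 126 FPKM in R, against 235 in P and 218 in N. The ratio was 0.58 (0.57 to 0.59) over N and 0.54 (0.52 to 0.55) over P. Here too the transcripts differed. The RefSeq transcript had 21.5 FPKM in R, against 23.0 in P and 23.5 in N, a log2 ratio of R over N of -0.13. The other, assembled transcript had 105 FPKM in R, against 212 in P and 195 in N. Both are 4538 bases long and differ in 1 exon, the ninth, for which each uses 1 of 2 neighbouring exons of 71 bases. The exons are 59.2% identical, with 42 bases shared and 29 different, so that reads can tell them apart. They are shown with the bases that differ in capitals, since the split of the FPKM rests on them (GENCODE M21 transcripts, GRCm38).
Exon 9, RefSeq transcript (chr10:59354340-59354410, plus strand): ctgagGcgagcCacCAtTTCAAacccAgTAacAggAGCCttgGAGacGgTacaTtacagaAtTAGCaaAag
Exon 9, assembled transcript (chr10:59355350-59355420, plus strand): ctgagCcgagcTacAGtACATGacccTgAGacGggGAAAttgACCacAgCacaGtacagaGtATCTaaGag
The exon of the RefSeq transcript had a coverage of 54.1 per 1000000000 aligned bases in R, 65.6 in P and 70.9 in N. The alternative exon had 272 in R, 522 in P and 494 in N. The RefSeq exon thus took 16.6% of the pair in R, 11.2% in P and 12.5% in N. R was lower for both exons, with a ratio of R over N of 0.76 for the RefSeq exon and 0.55 for the other. The 14 exons that both transcripts share gave ratios of R over N between 0.52 and 0.61. In every library the exon absent from the RefSeq transcript was the more used of the pair.

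**Figure D2:**
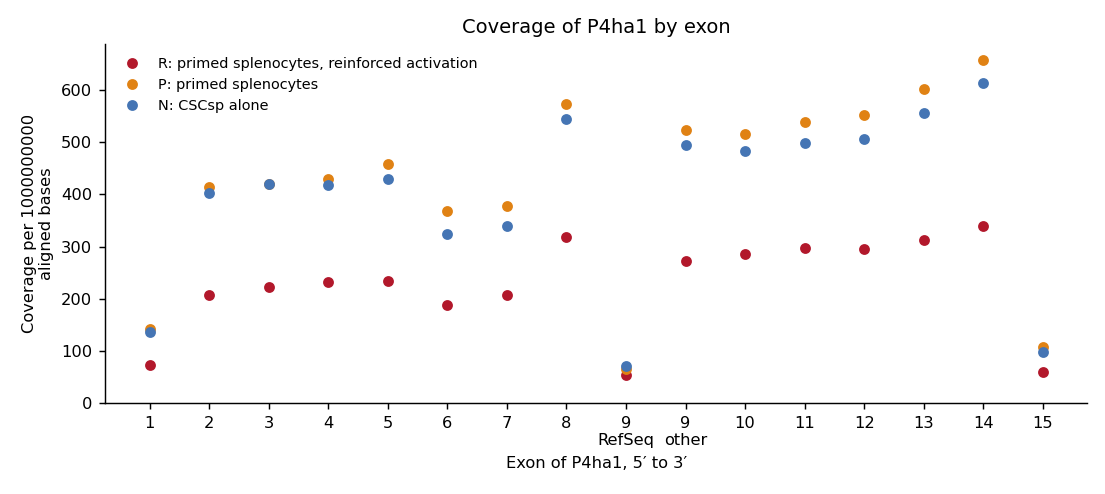
Coverage of each P4ha1 exon per 1000000000 aligned bases, from 5′ to 3′, in R, P and N, with both alternative forms of exon 9. R is lowest at each exon, and the RefSeq form of exon 9 has a coverage of 54.1 in R, 65.6 in P and 70.9 in N, while the other form has 272 in R, 522 in P and 494 in N.

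**Figure D3:**
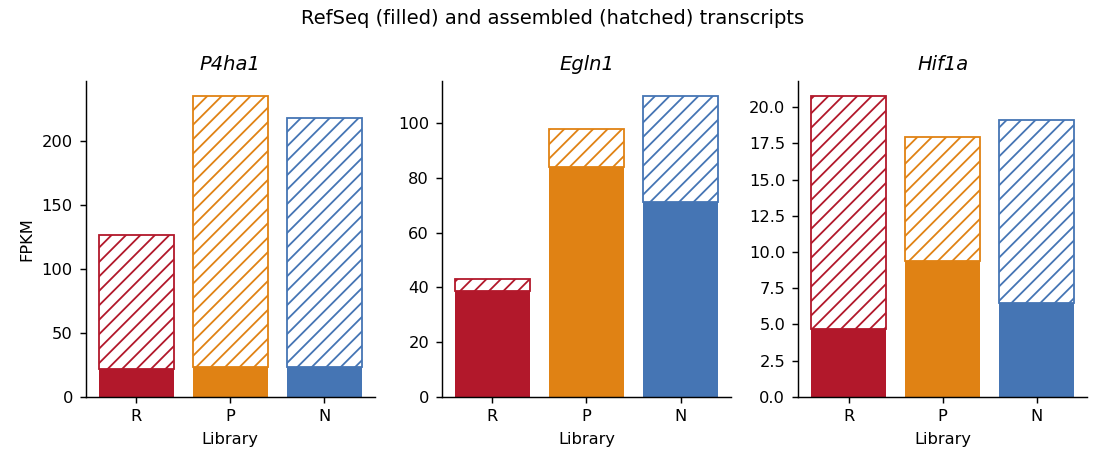
FPKM of RefSeq transcripts (filled) and of transcripts assembled from the reads (hatched) for P4ha1, Egln1 and Hif1a in R, P and N. The assembled part is the larger one of P4ha1, 105 of 126 FPKM in R, and the smaller one of Egln1, whereas in Hif1a the RefSeq part is 4.70 FPKM in R against 9.35 in P and 6.45 in N.

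By the ratio of R over N, the 10 genes lay in the order Adm, Ndrg1, Ankrd37, Egln1, Bnip3, Vegfa, P4ha1, Egln3, Car9 and Hif1a. Intervals of neighbours in this order overlap for Bnip3 and Vegfa, for Ndrg1 and Ankrd37, and for Ankrd37 and Egln1. Overlap alone does not show that ratios agree within counting error, and these pairs were not compared directly. By R over P the lowest were Ndrg1, Ankrd37 and Adm. For P over N, the interval lay above 1 for 5 genes, below 1 for 4 and around 1 for Bnip3, and the ratios ran between 0.56 for Adm and 1.31 for Ankrd37. These counts depend on the assembled transcripts. With RefSeq transcripts alone, Egln1 and Hif1a moved from below 1 to 1.18 (1.13 to 1.23) and 1.45 (1.33 to 1.58). The intervals of Egln3 and P4ha1 then held 1.

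**Figure D4:**
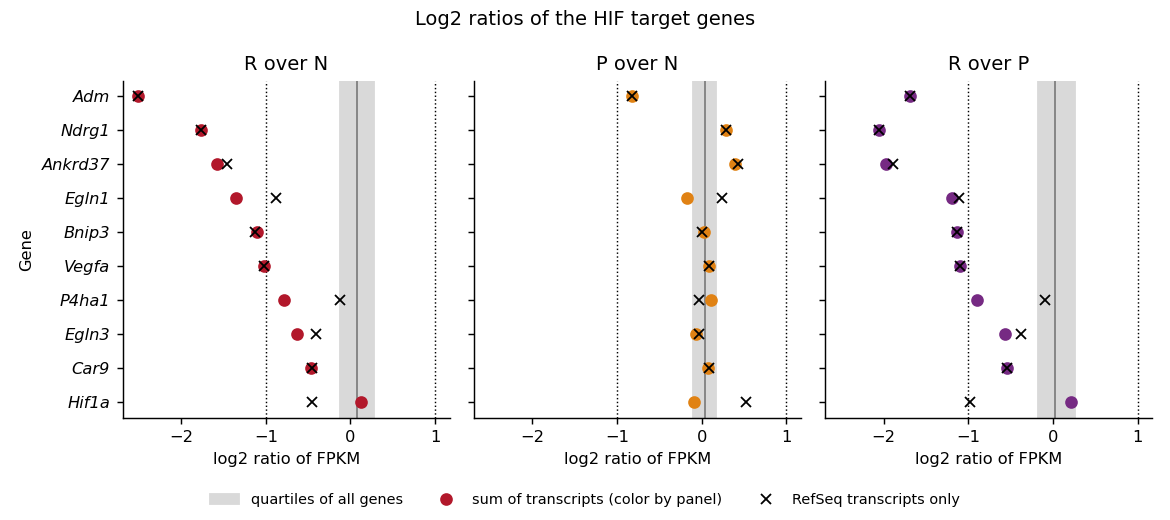
Log2 ratios of the 10 genes (panels R over N, P over N, R over P), as the sum of all transcripts (dots) and for RefSeq transcripts alone (crosses), with the quartiles of all genes in grey and 2-fold as dotted lines. Dots of 6 genes lie left of 2-fold in both comparisons of R and none does for P over N, while the crosses of P4ha1, Egln1 and Hif1a stand apart from their dots.

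A further 80 genes of the HIF system were followed in 11 lists of pathway and function, none of them among the 10, although these lists too were drawn up with results of these data known. For R over N, 58 of the 80 had 1 FPKM in either library, 11 were at least 2-fold lower and 0 at least 2-fold higher, beside 1.88% and 3.09% of all genes. Below 0 on the log2 scale were 44 of the 58, beside 39.7% of all genes, and their median was -0.42. For R over P, 11 of 56 were at least 2-fold lower and 0 higher, beside 1.69% and 4.16%, with a median of -0.58. Below 0 in that comparison were 41 of the 56, beside 46.0% of all genes. For P over N, 2 of 58 were at least 2-fold lower (Car2 and Slc16a3) and 0 higher, beside 1.55% and 0.53%, with a median of 0.03.

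Of the HIF subunits, Arnt was at 22.0 FPKM in R, against 28.8 in P and 27.9 in N, whereas Epas1, Hif3a and Arnt2 were below 0.1 FPKM in all 3. Of 8 genes of hydroxylation and degradation, 7 were measured and none was 2-fold apart in any comparison. Vhl, the recognition subunit of the ligase, was at 9.35 FPKM in R, against 10.5 in P and 10.6 in N. Cul2, the scaffold of the same ligase, was at 6.55 FPKM in R, against 4.69 in each of the others. Egln2, the third hydroxylase of the family, was at 27.8 FPKM in R, against 26.6 in P and 26.3 in N, so Egln1 and Egln3 were lower in R and Egln2 was not (Egln2, Epas1, Hif3a and Arnt2 were named after their values were seen). Cited2, which is itself induced by HIF and competes with it for the coactivators, was at 39.2 FPKM in R, against 53.1 in P and 63.2 in N. Its log2 ratios of R were -0.69 over N and -0.44 over P. Those of the coactivator Ep300 were 0.09 over N and -0.10 over P, and those of the coactivator Crebbp were -0.06 over N and -0.27 over P.

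Of 9 receptor genes of the secreted ligands, 4 reached 1 FPKM in each library. Flt1, a receptor of Vegfa, was at 8.38 FPKM in R, against 5.74 in P and 7.92 in N. Nrp2, a coreceptor, was at 158 FPKM in R, against 83.7 in P and 101 in N, and was the highest receptor gene. Kdr, the main signalling receptor of Vegfa, and Calcrl, the receptor of adrenomedullin, stayed below 1 FPKM in all 3 libraries (both named after their values were seen). Among relatives of the 10 genes, Pgf, a placental growth factor of the Vegfa family, was at 11.5 FPKM in R, against 27.2 in P and 25.5 in N, with a ratio of R over N of 0.45. Ndrg3, a paralog of Ndrg1, had log2 ratios of R of -0.34 over N and -0.58 over P, whereas those of Ndrg1 were -1.77 over N and -2.05 over P.

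Bnip3l, the close relative of Bnip3 in mitophagy, was at 33.3 FPKM in R, against 65.8 in P and 67.0 in N, and Higd1a, a small mitochondrial protein, was at 18.2 FPKM in R, against 40.7 in P and 39.5 in N. All 5 measured genes of that list were below 0 for both ratios of R, beside 39.7% of all genes over N and 46.0% over P. Their median log2 ratios of R were -0.72 over N and -0.66 over P. Car12, another carbonic anhydrase of the cell surface, was at 14.0 FPKM in R, against 29.3 in P and 30.5 in N. Slc16a3, a lactate exporter, and Car2, a cytosolic carbonic anhydrase, stood near the floor of 1 FPKM. Car2 was at 0.67 in R, 0.58 in P and 1.75 in N, and Slc16a3 at 0.48 in R, 0.09 in P and 1.05 in N. For both genes, the log2 ratio of R over N changed sign when the labels of P and N were exchanged.

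P4ha2, the second alpha subunit of the collagen hydroxylase, was at 34.8 FPKM in R, against 78.3 in P and 69.8 in N. P4hb, the beta subunit shared by these enzymes, was at 248 FPKM in R, against 335 in P and 382 in N. Plod2, which hydroxylates lysines of collagen, was at 32.0 FPKM in R, against 67.5 in P and 58.4 in N. Ero1l (Ero1a), an oxidase of the endoplasmic reticulum, had the lowest ratio of R over N of the 58 genes, 87.9 FPKM in R against 262 in P and 288 in N. Bhlhe40, a transcriptional repressor, was at 58.9 FPKM in R, against 117 in P and 139 in N, and Ddit4, an inhibitor of mTORC1, at 189 FPKM in R, against 451 in P and 340 in N. All 11 measured genes of the transcription and stress list were below 0 for R over N, beside 39.7% of all genes, with a median of -0.81. Against P, 10 of 11 were so, beside 46.0%, also with a median of -0.81. The exception was Nfil3, a transcription factor, at 35.7 FPKM in R, 29.2 in P and 50.8 in N (named after its values were seen).

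Of 8 measured genes of glucose use, 6 were below 0 for R over N, beside 39.7% of all genes, and 6 also against P, beside 46.0%. Slc2a1, the main glucose transporter of most cells, was at 104 FPKM in R, against 245 in P and 243 in N, and Pgam1, a glycolytic mutase, at 386 FPKM in R, against 801 in P and 781 in N. Pgk1 and Ldha, a kinase and the lactate dehydrogenase of glycolysis, were lower in R by less than 2-fold, with log2 ratios of R over N of -0.80 for Pgk1 and -0.60 for Ldha, and of R over P of -0.80 and -0.66. The other 2, Hk2 and Pfkfb4 (named after their values were seen), ran the other way. Hk2, the hexokinase that commits glucose to the cell, was at 50.3 FPKM in R, against 37.5 in P and 31.8 in N. Pfkfb4, a regulator of glycolytic flux, was at 3.84 FPKM in R, against 3.19 in P and 2.71 in N.

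**Figure D5:**
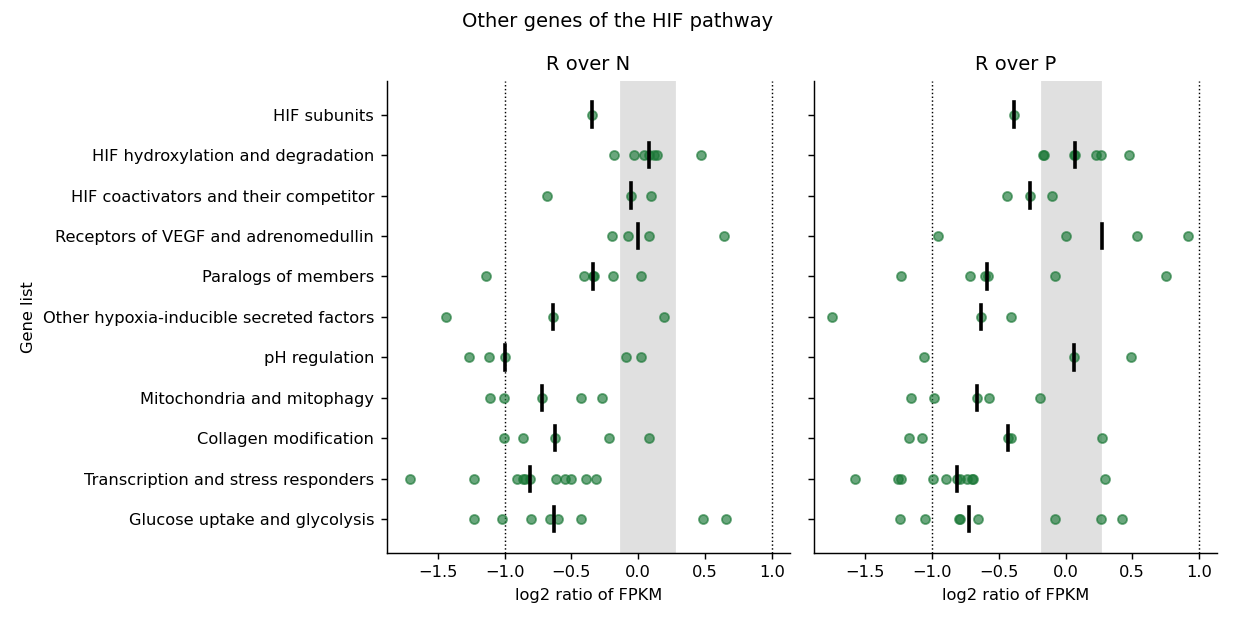
Log2 ratios of FPKM, R over N (left) and R over P (right), of the measured genes of 11 lists of the HIF pathway (dots) with the list's median (bar), the quartiles of all genes in grey and 2-fold as dotted lines. For R over N no dot lies right of 2-fold and 11 lie left of it, and the list medians run between -0.995 and 0.08. The pH regulation list, lowest there, has a median of 0.06 for R over P, but the 2 medians rest on unlike sets of genes. For R over N 5 genes were measured, and the median is the value of Slc16a3, near the floor. For R over P 3 were measured, as Car2 and Slc16a3 were below 1 FPKM in both libraries.

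The genes whose pattern was most like that of Adm, the gene of the 10 with the largest difference between R and N, were sought among 7026 genes with at least 5 FPKM in every library, by the distance in the log2 ratios of R over N and P over N. The nearest were Hist2h2aa1 (0.17), Rpl30 (0.24), Hist1h2bc (0.68), Hist1h1c (0.89) and Nr1d1 (1.01). Hist2h2aa1 and Rpl30 share a locus with another gene, and their values are uncertain. Nr1d1 encodes a repressor of the circadian clock. Hist1h1c, a linker histone gene, was at 18.5 FPKM in R, against 82.2 in P and 187 in N. The other 9 HIF genes were left out of this search, so it does not compare their likeness to Adm with that of these 5. The likeness rests on 3 libraries.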

How the data were processed

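RNA of 4T1 CSCsp was sequenced in 3 libraries, 1 per condition. The authors used HISAT2 2.2.0 for alignment and StringTie (2.1.3 in the submitters' notes, 2.1.5 in the headers) to quantify transcripts of RefSeq and transcripts newly assembled. Their deposited values are coverage, FPKM and TPM of transcripts, and coverage of exons. The notes name mm9, but coordinates overlap GRCm38 genes for 99.3% of 23188 symbols, so GRCm38 is used. Read filters were not stated in the sources used.

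FPKM was summed per gene over 34970 RefSeq and 9352 assembled transcripts, the second kind placed by greatest exonic overlap. Another 3168 unmatched transcripts, left out, held 10.7% (R), 12.3% (P) and 12.2% (N) of the deposited FPKM. Fragments were derived from coverage at 300 bases per read pair. FPKM intervals (exact Poisson) and ratio intervals (exact Clopper-Pearson), at 95%, cover counting error only. Log2 ratios used a pseudocount of 0.1 FPKM, and genes were counted at 2-fold where either library had at least 1 FPKM. The procedure was tested on simulated data. The 10 genes, the lists and the alternatives were chosen with earlier results of these data known. Named were all 10 genes, up to 4 genes of each list with the largest absolute log2 ratio of R over N and its highest gene, and the 5 genes nearest to the one with the largest absolute log2 ratio of R over N. Some genes of this rule are not reported here. Alternatives were other pseudocounts (1 and 0.01), TPM, median-ratio rescaling over 7223 genes, the top transcript by mean, RefSeq transcripts only, no filter or a filter of 5 FPKM, exchanged labels and, added after the data were seen, R over the mean of P and N. Software was Python 3.11.15, SciPy 1.17.1, pandas 2.3.3, NumPy 2.4.6 and Matplotlib 3.10.9.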

Additional observations from a re-analysis of the deposited data

How the results depend on the processing

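No paired analysis was possible because each condition has 1 library. No alternative turned the median of the 10 HIF target genes for R over N or R over P, or put any of them 2-fold higher in R. Their median for R over N became -0.89 with the transcript of highest mean and -0.95 with RefSeq transcripts only. The count at least 2-fold lower was 4 with the transcript of highest mean, 5 with TPM or RefSeq transcripts only and 6 otherwise for R over N, and 6 to 7 for R over P. Vegfa lost 2-fold against N with TPM (-0.97) and with the transcript of highest mean (-0.64). Egln1 lost it with RefSeq transcripts only or the transcript of highest mean (-0.88 in both), and Hif1a changed sign, to -0.45 in both. The cause of these moves was not tested. For P over N their median became 0.18 with the transcript of highest mean and -0.054 with exchanged labels.

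For the 80 other pathway genes, the median for R over N was -0.29 without a filter and -0.58 with exchanged labels, and the count 2-fold higher was 1 with the transcript of highest mean or no filter and 2 with RefSeq transcripts only. For R over P the median was -0.44 with TPM, -0.43 with the transcript of highest mean or RefSeq transcripts only, -0.27 without a filter, -0.44 with a filter of 5 FPKM and -0.42 with exchanged labels, and the count 2-fold higher was 1 with TPM or no filter, 2 with the transcript of highest mean and 3 with RefSeq transcripts only. For P over N the count 2-fold lower was 0 with a pseudocount of 1, a filter of 5 FPKM or exchanged labels, and the count 2-fold higher was 3 with the transcript of highest mean, 4 with RefSeq transcripts only, 1 without a filter and 2 with exchanged labels. Exchanged labels also turned Car2 (0.17 for R over N, 1.44 for P over N) and Slc16a3 (2.60 for P over N, -0.995 for R over P). For R over N, Slc16a3 changed sign as well, from -0.995 to 1.6. Of the alternatives for single genes, 893 stayed close to the value reported, 247 moved and 4 turned. A change of sign was counted as turned only where the reported ratio was at least 2-fold. Sign changes of smaller ratios, as of Hif1a and of P over N with exchanged labels, are therefore not among the 4. With 1 library per condition, differences between experiments cannot be told from differences between conditions, and depth limits only genes near 1 FPKM.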
